A study of Mus musculus with 12 samples.

Results

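The response of Pim1-/- bone marrow-derived macrophages (BMDMs) to LPS was followed across the transcriptome by RNA-seq. The comparison set 3 LPS-treated Pim1-/- libraries against 3 untreated Pim1-/- libraries, and its members were the 10255 genes, of 23997 in the files, that reached at least 1 FPKM in at least 3 of these 6 libraries. FPKM is the number of sequenced fragments scaled to transcript length and to the library. The series held 12 libraries in 4 groups of 3: untreated Pim1-/- BMDMs, Pim1-/- BMDMs with LPS at 100 ng/ml for 4 h, untreated WT BMDMs, and WT BMDMs with the same LPS treatment. The WT libraries entered here only where the response of the Pim1-/- cells was tested against that of WT cells. All cells came from mice on a C57BL/6 background, 8 to 10 weeks old and male, and had been grown from bone marrow for 7 days with macrophage colony-stimulating factor at 10 ng/ml in medium with 20% FBS. The Pim1-/- mice were made by CRISPR/Cas9 editing, so that every cell of the animal carries the deletion, in the marrow from which the macrophages grew as well as in the macrophages. The sources do not name whether the libraries of a group came from separate mice or separate cultures, and the p-values then measure only the spread between these samples, which may be technical.

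LPS is the glycolipid of the outer membrane of Gram-negative bacteria. Macrophages detect it with the receptor TLR4 and its partners CD14 and MD-2, and TLR4 signals through the adaptor MyD88, which leads to NF-κB and to cytokine genes, and through the adaptor TRIF, which leads to the kinase TBK1, the transcription factor IRF3 and interferon-β. Secreted interferon-β then acts on the same cells through the JAK-STAT pathway and induces the interferon-stimulated genes (ISGs), while NF-κB also induces its own inhibitors. Pim1 is a serine/threonine kinase whose activity is set mainly by how much of it a cell makes.

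The 6 libraries were alike in depth. At low values, 80.7% of 2696 values over all libraries lay within 0.1 of a whole multiple of what 1 fragment is worth. That worth was picked in each library to make this share largest, so the 20% of evenly spread values is too low a comparison. The depths that follow were about 25200000 to 33600000 fragments per Pim1-/- library, an estimate that depends on the annotated lengths. The summed FPKM was 452511 to 472138 in the untreated and 713307 to 743912 in the LPS libraries, and with every library scaled to the same sum the median log2 fold change of all genes was -0.62. With the deposited scaling it was -0.01. The median coefficient of variation between replicates was 4.67% in untreated and 5.12% in LPS-treated Pim1-/- cells. All 10 macrophage markers were tested, and their summed level was 14404 to 15321 FPKM without and 15922 to 17785 FPKM with LPS, most of it from Lyz2. Of the 10, 3 were called higher and 2 lower, with log2 fold changes from -3.36 to 3.40. None of the 8 B cell markers, of the 8 T and NK cell markers in the files or of the 8 erythroid markers passed the filter, and the defining markers were at or near 0, with sums of at most 1.16 FPKM for B cells, 0.961 FPKM for T and NK cells and 0.128 FPKM for erythroid cells. Of the 9 neutrophil markers in the files 2 passed, with sums of 5.84 to 8.69 FPKM over all 6 libraries, and of the 9 dendritic cell markers 1 passed, with sums of 5.32 to 7.35 FPKM. Of the 8 mast cell and basophil markers 2 passed, Kit and Hdc, and the sum of this list went from 2.08 to 2.76 FPKM without LPS to 29.4 to 33.6 FPKM with LPS, of which Hdc alone made 31.2 FPKM. Kit was called lower, but not without untreated replicate 3. Of the 10 stromal markers 1 passed, Pdgfrb, and the sums were 1.11 to 1.45 and 3.63 to 4.40 FPKM. The part of other cell types in the results was not tested. In bulk RNA, fewer cells of one kind and less RNA per cell cannot be told apart.

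Pim1 RNA rose after LPS in the Pim1-/- cells although the gene is disrupted. The gene lies at chr17:29490753-29496112 on the + strand (GRCm38). Its level was 8.70, 8.00 and 9.51 FPKM in the untreated libraries and 216, 205 and 236 FPKM in the LPS libraries. The LPS values lay far above the untreated ones, with a log2 fold change of 4.50 ± 0.06 (SE) and an adjusted p of 5.7e-19 by limma. In WT cells the level went from 22.9 to 645 FPKM, and the difference between the responses, -0.26 ± 0.09 on the log2 scale, was not called. The deletion covers exons I to V and the deposited value covers the whole gene, so the RNA counted here need not come from the deleted part and the check of the labels rests on the lower level in both conditions. The related kinases Pim2 and Pim3 were not called, at 1.92 and 1.87 FPKM and at 3.90 and 5.30 FPKM before and after LPS.

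LPS changed 2645 genes in Pim1-/- cells, or 25.8% of the genes tested. A gene was called when limma, fitted on log2(FPKM + 1) with all 12 libraries, gave a change over 2-fold, p under 0.05 and FDR (Benjamini-Hochberg) under 0.1. Of these, 1543 were higher (15.0% of the genes tested) and 1102 were lower (10.7%). With every library scaled to the same sum, 1005 were higher and 3097 lower, so the balance between the directions rests on the scaling. None of the 259 genes named in the text changed direction and call under that scaling, while 18 lost and 10 gained a call. The calls lost were those of Abca1, Actb, B2m, Cd74, Cd80, H2-Aa, H2-Eb1, Hif1a, Id2, Ifngr2, Ly96, Mcl1, Mir8112, Msr1, Spi1, Ticam1, Ywhaz and Zeb2. The increases were larger than the decreases: 66 genes rose more than 64-fold and another 125 rose 16- to 64-fold, whereas no gene fell more than 64-fold and 4 fell 16- to 64-fold. Most decreases, 910 of 1102, were 2- to 4-fold. Folds are on the log2(FPKM + 1) scale and understate the change of genes with low values. From below 1 FPKM in every untreated library to at least 10 FPKM in every LPS library went 106 genes. The opposite, from at least 10 FPKM to below 1, was seen for 7 genes, named here after their values were seen: E2f2, Fbxo5 and Ccnf, which act in the cell cycle, S1pr1, a receptor for sphingosine-1-phosphate, Rasgrp3, Arhgef39 and Slc26a11.

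**Figure D1:**
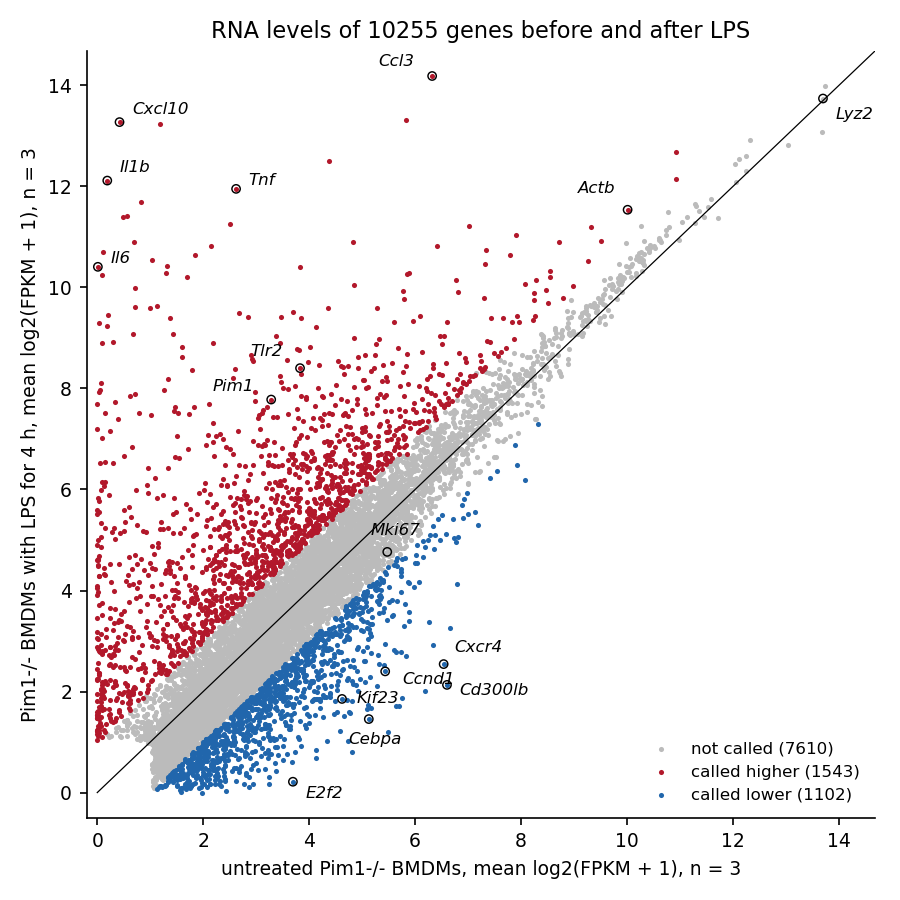
Mean level of each of the 10255 genes in untreated Pim1-/- BMDMs (x axis) and after LPS for 4 h (y axis), both as log2(FPKM + 1) over 3 libraries; the line marks equal levels. The 1543 genes called higher reach far above the line at low untreated levels, while the 1102 called lower stay closer to it.

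Replicate spread was small beside these changes. The 3 LPS values lay above the 3 untreated values in 42.0% of the genes tested and below them in 42.0%, so separate groups are the rule in these libraries, called or not. Among the called genes the groups were separate for 1542 of the 1543 higher and 1101 of the 1102 lower ones. The exceptions were Mir8112, a microRNA, and Atp6v0c-ps2, a processed copy of Atp6v0c whose reads may belong to either gene. Of the 9051 genes at 1 FPKM or more in all 6 libraries, 1239 were higher and 755 lower. The filter itself takes in genes that are seen in only 1 condition: 341 genes reached 1 FPKM only in LPS libraries, of which 277 were called higher, and 557 only in untreated libraries, of which 285 were called lower.

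After LPS the genes called higher took up a larger share of the summed FPKM and the genes called lower a smaller one. The genes were picked by their change in these same libraries, which sets the direction, so only the sizes are described. The genes called higher made up 8.21% ± 0.0716 (SD, n = 3) of the summed FPKM before LPS and 37.1% ± 0.127 after it, and the genes called lower 3.95% ± 0.115 and 0.750% ± 0.0181. Chemokines, the 22 genes of that list, went from 0.0700% ± 0.00199 to 8.77% ± 0.101. Ccl3, Ccl4, Ccl5 and Cxcl10 together made up 6.61% ± 0.0997 after LPS. Before LPS the 5 highest genes were Fth1 and Ftl1, the ferritin chains, Lyz2, a lysozyme, Ctsd, a lysosomal protease, and Tmsb4x, which binds actin monomers. After LPS the highest was Ccl3, at 18631 FPKM, followed by Fth1 at 16242, Lyz2 at 13679.9, Ccl4 at 10128 and Cxcl10 at 9897 FPKM. Fth1 and Lyz2 were not called, at 13614 and 13297 FPKM before LPS, and neither was Ftl1, which went from 13099 to 8673 FPKM.

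The promoters of 4 of the genes with the largest increases are shown first, since they carry the motifs counted below. Each is the RefSeq window from 250 bases before to 50 bases after the transcription start (GRCm38.p6), written from 5′ to 3′ on the gene's strand, with matches to the NF-kB consensus and to the core of the interferon-stimulated response element (ISRE), GAAA and GAAA with any 2 bases between, in capitals. Cxcl10 has 2 overlapping NF-kB matches, the first starting 104 bases before the start site, and an ISRE match 213 bases before it. Ifit1 has 2 ISRE matches, 104 and 85 bases before the start, and no NF-kB match in this window. Cxcl1 and Il6 have 1 NF-kB match each, 71 and 44 bases before the start.
Cxcl10 promoter, chr5:92348840-92349139 (- strand): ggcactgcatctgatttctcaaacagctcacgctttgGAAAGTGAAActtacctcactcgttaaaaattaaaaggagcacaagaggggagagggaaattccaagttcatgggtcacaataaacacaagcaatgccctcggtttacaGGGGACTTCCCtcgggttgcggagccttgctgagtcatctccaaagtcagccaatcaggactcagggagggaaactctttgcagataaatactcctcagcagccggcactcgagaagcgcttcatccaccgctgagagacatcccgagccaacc
Ifit1 promoter, chr19:34640639-34640938 (+ strand): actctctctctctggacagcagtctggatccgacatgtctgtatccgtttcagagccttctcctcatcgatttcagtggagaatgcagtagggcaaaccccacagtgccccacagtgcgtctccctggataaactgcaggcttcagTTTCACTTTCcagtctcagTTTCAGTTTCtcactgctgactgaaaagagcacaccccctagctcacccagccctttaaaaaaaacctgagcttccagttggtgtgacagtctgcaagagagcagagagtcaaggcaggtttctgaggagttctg
Cxcl1 promoter, chr5:90890995-90891294 (+ strand): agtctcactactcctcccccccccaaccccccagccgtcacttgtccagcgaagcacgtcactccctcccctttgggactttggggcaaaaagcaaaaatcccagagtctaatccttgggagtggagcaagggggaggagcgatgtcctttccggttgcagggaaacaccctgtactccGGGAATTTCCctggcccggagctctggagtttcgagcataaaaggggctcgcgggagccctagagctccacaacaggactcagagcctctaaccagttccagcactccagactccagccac
Il6 promoter, chr5:30012864-30013163 (+ strand): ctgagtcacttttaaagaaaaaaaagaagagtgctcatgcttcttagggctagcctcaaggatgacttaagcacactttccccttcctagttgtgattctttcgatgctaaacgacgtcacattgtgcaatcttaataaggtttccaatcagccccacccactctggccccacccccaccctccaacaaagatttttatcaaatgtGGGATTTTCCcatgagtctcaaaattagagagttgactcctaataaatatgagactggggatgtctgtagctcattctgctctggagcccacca

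The 12 largest increases included genes of chemokines, cytokines, antiviral proteins and a metabolic enzyme. Cxcl10, a chemokine that draws T cells and NK cells through CXCR3, was at 0.336, 0.329 and 0.349 FPKM in the untreated libraries and 10011, 9943 and 9737 FPKM in the LPS libraries. On the log2(FPKM + 1) scale this was the steepest change of all genes, with a log2 fold change of 12.85 ± 0.05. Its adjusted p was 6.7e-26 by limma. Ccl5, which attracts monocytes and T cells, was at 1.23, 1.39 and 1.19 FPKM in the untreated libraries and 9559, 9299 and 9938 FPKM in the LPS libraries, and its log2 fold change was 12.05 ± 0.06. Il1b, the precursor of interleukin-1β, was at 0.134, 0.0659 and 0.220 FPKM in the untreated libraries and 4781, 4379 and 4146 FPKM in the LPS libraries. All 3 genes were near the floor without LPS and among the most abundant mRNAs with it. Irg1 (Acod1), which makes itaconate, was at 0.345, 0.719 and 0.379 FPKM in the untreated libraries and 2715, 2655 and 2856 FPKM in the LPS libraries. Il6 was at 0.0244, 0 and 0 FPKM in the untreated libraries and 1418, 1418 and 1237 FPKM in the LPS libraries. Tnf stood apart from the others by its level before LPS, at 5.31, 4.77 and 5.37 FPKM in the untreated libraries and 3850.2, 3842 and 4184 FPKM in the LPS libraries, with a log2 fold change of 9.33 ± 0.05. The remaining 6 of the 12 largest increases were Cxcl2 and Cxcl1, which attract neutrophils, Rsad2, Ifit1 and Cmpk2, which are antiviral, and Il12b, a subunit of interleukins 12 and 23. Over these 12 genes the log2 fold changes ran from 9.33 to 12.85, the standard errors were at most 0.12, and the mean LPS levels ran from 1219 to 9897 FPKM.

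**Figure D2:**
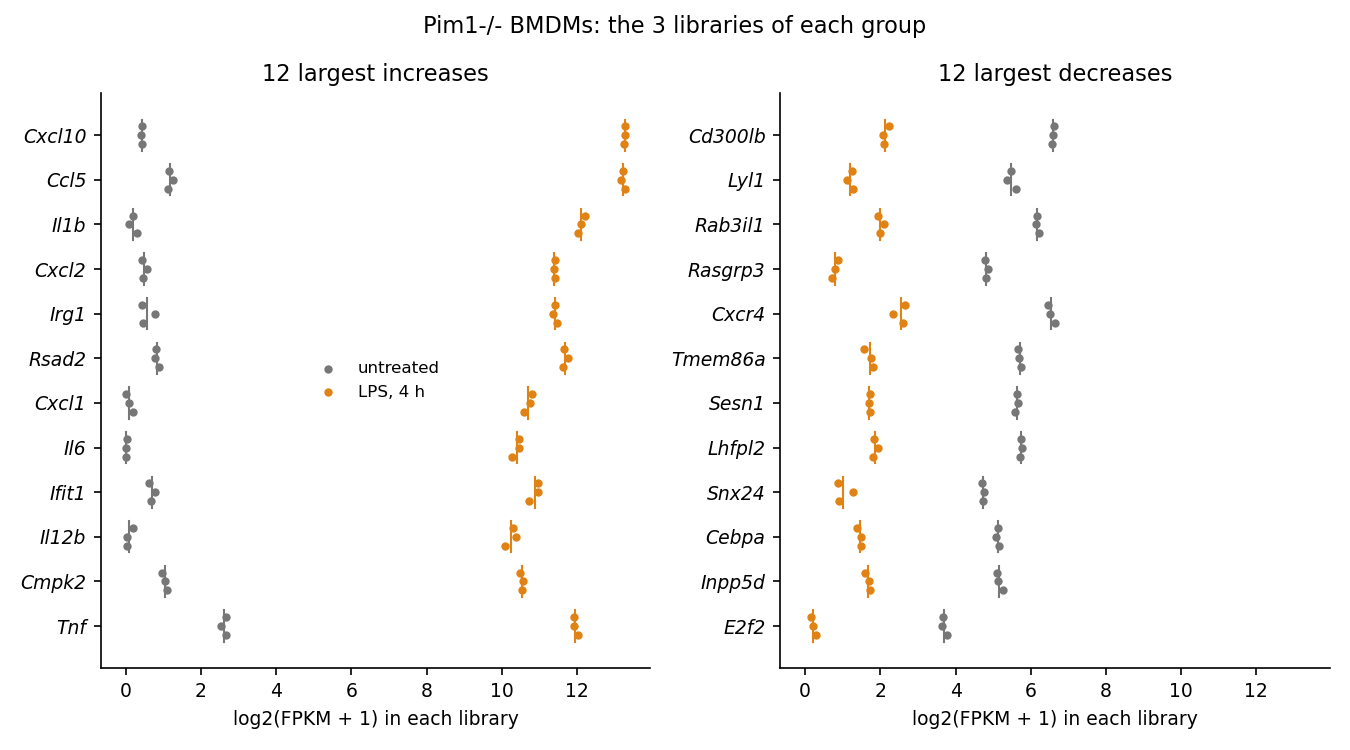
Level of the 12 genes with the largest increase (left) and the 12 with the largest decrease (right) in each of the 6 Pim1-/- libraries, as log2(FPKM + 1); points are libraries and vertical lines group means. In all 24 genes the 3 LPS libraries are apart from the 3 untreated ones, and the gaps at the left, from 9.33 to 12.85, are wider than those at the right, from -4.47 to -3.48.

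Of the 22 chemokines, 21 were tested and 19 were called higher, none lower, beside 15.0% and 10.7% of all genes. The median log2 fold change was 7.39 beside -0.01 over all genes. Since 12 of them passed the filter only through the LPS libraries, these had to differ, and of the 9 at 1 FPKM or more in all 6 libraries 7 were higher. The monocyte attractants Ccl2 and Ccl7 went from 19.8 to 5808 FPKM and from 4.71 to 2450.2 FPKM. Cxcl16, which has a membrane-bound form, went from 23.4 to 348 FPKM with a log2 fold change of 3.84 ± 0.05. Ccl17 and Ccl22, both ligands of CCR4, reached 244 and 210.2 FPKM. Cxcl9 and Cxcl11, the other ligands of CXCR3, were listed at 0 in every untreated library, and their LPS values were 46.4, 45.2 and 42.8 FPKM and 49.2, 48.8 and 44.1 FPKM, far below that of Cxcl10. Cxcl3 was also listed at 0 without LPS and was at 213, 196 and 206 FPKM with it. Ccl24, an eosinophil attractant, went from 0.0435 to 2.46 FPKM. It rose least among the called ones on the log2(FPKM + 1) scale, which understates the change of genes with such low values. Ccl6 and Cxcl14 were not called, with log2 fold changes of 0.23 ± 0.05 and -0.46 ± 0.09, and Cxcl5 stayed under the filter, at up to 0.381 FPKM.

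Of 24 cytokines, 20 were tested and 20 were called higher (beside 15.0% of all genes), with a median of 5.61. Of these, 12 passed through the LPS libraries alone, and the 8 present in all 6 libraries were all higher, with a median of 4.70. Il1a and Il27 rose to 479 and 480.0 FPKM. Among the cytokines already expressed, Il15, which sustains NK and memory T cells, rose from 9.31 to 524 FPKM, Il18 rose from 7.24 to 117 FPKM and Csf1, the growth factor on which these cells depend, rose from 1.85 to 132 FPKM. The anti-inflammatory genes were induced too: Il1rn, the antagonist of the interleukin-1 receptor, rose from 2.34 to 179.9 FPKM and Il10 from 0.181 to 21.9 FPKM. Csf2, which encodes GM-CSF, was at 0, 0 and 0.0269 FPKM in the untreated libraries and 23.4, 20.1 and 20.9 FPKM in the LPS libraries. Il12a, the partner of Il12b in interleukin-12, was listed at 0 without LPS and at 7.51, 7.62 and 6.90 FPKM with it, so that Il12b exceeded it by far. Il23a, the partner of Il12b in interleukin-23, reached 1.48 FPKM. Lif, Csf3, Lta and Il33 did not pass the filter, and the highest value among them was 1.20 FPKM, of Lta after LPS.

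All 64 ISGs on the list were tested and 64 were called higher (beside 15.0% of all genes), with a median of 5.18. Like every list here, it was chosen with earlier results of these data known, so its count is a description. Here the count rests less on the filter, since 47 were present in all 6 libraries, all of them higher with a median of 4.45. Rsad2, which encodes viperin, was at 0.751, 0.722 and 0.854 FPKM in the untreated libraries and 3204, 3472 and 3182 FPKM in the LPS libraries. Ifit1, which binds RNA that lacks the host cap, was at 0.525, 0.724 and 0.604 FPKM in the untreated libraries and 1992, 2013 and 1703 FPKM in the LPS libraries. Isg15, a ubiquitin-like modifier, rose from 3.45 to 1804 FPKM, and Usp18, which removes it, from 1.59 to 673 FPKM. Mx1 and Gbp2, both large GTPases, rose to 276 and 1589 FPKM. Transcription factors of the pathway rose too: Irf7 from 2.02 to 396 FPKM, Irf1 from 13.4 to 676 FPKM, Stat2 from 5.39 to 88.4 FPKM and Irf9 from 12.8 to 63.1 FPKM. The smallest increase of the list was that of Trim25, with 1.99 ± 0.05. The Oas1, Ifit, Gbp and Slfn genes have close paralogs among which reads can be split, so their single values are uncertain.

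A list of 15 genes held interferons, their receptors, the kinases Jak1, Jak2 and Tyk2, and the inhibitors Socs1 and Usp18. Of these 11 were tested and 6 were higher (beside 15.0% of all genes): Ifnb1, the receptor chain Ifngr2, Jak2, Tyk2, Socs1 and Usp18. Socs1 and Usp18 are counted in other lists too. Ifnb1, the gene of interferon-β, was listed at 0 in each untreated library and was at 15.1, 17.0 and 14.5 FPKM after LPS. Jak2 rose from 7.32 to 176 FPKM, Tyk2 from 10.8 to 42.4 FPKM and Ifngr2 from 47.3 to 108 FPKM. The receptor chains Ifnar1 and Ifnar2 were not called, with log2 fold changes of 0.70 ± 0.05 and 0.59 ± 0.04. Ifna2, Ifna4, Ifng and Ifnlr1 did not pass the filter.

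NF-κB genes and the brakes of the pathway rose as a group: 24 of 25 were called higher (beside 15.0% of all genes), with a median of 4.03. Of the 22 present in all 6 libraries 21 were higher. Nfkbia, which encodes the inhibitor IκBα, was at 28.5, 26.9 and 28.3 FPKM in the untreated libraries and 1054, 1029 and 1096 FPKM in the LPS libraries, a log2 fold change of 5.20 ± 0.04. Tnfaip3 (A20), a ubiquitin-editing enzyme, rose from 2.45 to 329.6 FPKM, and Nfkbiz, a nuclear IκB protein, from 1.38 to 249 FPKM. Among the subunits the increase was largest for Nfkb2, with 4.42 ± 0.05, followed by Rel with 3.68 ± 0.08, Nfkb1 with 3.22 ± 0.05, Relb with 3.11 ± 0.06 and Rela with 1.86 ± 0.05. Socs3, which restrains cytokine receptors, rose most of the list, from 2.05 to 454 FPKM, and Zfp36, which promotes decay of cytokine mRNA, rose from 17.2 to 355 FPKM. Tnip2 alone was not called, with 0.33 ± 0.05.

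The receptors and adaptors that sense microbes moved unevenly. Of 27 tested Toll-like receptor pathway genes 15 were higher and 1 lower, where 15.0% and 10.7% of all genes were. The median was 1.17, or 0.51 with a common sum and 0.67 with quantile normalization. Tlr2, a receptor for bacterial lipoproteins, was at 12.8, 13.1 and 13.7 FPKM in the untreated libraries and 330.1, 338 and 344 FPKM in the LPS libraries and rose most, by 4.58 ± 0.04 on the log2 scale. Tlr3, the receptor of double-stranded RNA, rose from 2.39 to 48.0 FPKM, and the MyD88-dependent kinase Irak2 from 10.2 to 112 FPKM. Tlr4 itself was at 28.8, 31.7 and 25.7 FPKM in the untreated libraries and 18.7, 18.9 and 15.5 FPKM in the LPS libraries, lower in all 3 LPS libraries, but with -0.67 ± 0.08 it was not called. Its partners rose: Cd14 from 160.3 to 1699 FPKM and Ly96, which encodes MD-2, from 21.5 to 51.1 FPKM. Myd88 rose from 23.1 to 144 FPKM and Ticam1, which encodes TRIF, from 8.33 to 21.4 FPKM, whereas Irf3 was at 16.9 and 17.6 FPKM. Tlr13, a receptor for bacterial ribosomal RNA, was the member called lower, at 112, 120.1 and 102 FPKM in the untreated libraries and 33.4, 34.3 and 29.8 FPKM in the LPS libraries. Of the 13 inflammasome genes 8 were higher and 1 lower, beside the same shares of all genes. Among the higher ones Nlrp3 went from 7.77 to 190.4 FPKM and Casp1 from 56.0 to 348 FPKM. The lower one was Nlrp1b, from 2.62 to 0.246 FPKM. Pycard, the adaptor ASC, had -0.63 ± 0.05 and was not called.

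Immediate-early genes, which are read out within minutes of a stimulus, were mostly higher after 4 h of LPS. Of 20 tested, 13 were higher and 2 lower, beside 15.0% and 10.7% of all genes, with a median of 1.33. The count of lower ones is near its share, so it is no result about the list. Junb rose from 37.2 to 471 FPKM and Dusp2, a phosphatase of MAP kinases, from 1.77 to 98.8 FPKM. Jun fell from 32.1 to 13.6 FPKM and Dusp6, which acts on ERK, fell from 18.5 to 3.38 FPKM. Fos and Myc were not called, with -0.87 ± 0.07 and 0.31 ± 0.06. Fosb, Fosl1, Egr1, Egr3 and Nr4a1 did not pass the filter, with values of at most 1.21 FPKM in any of the 6 libraries.

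All 22 tested enzymes and secreted effectors were called higher (beside 15.0% of all genes), with a median of 4.28. However, 16 of them passed through the LPS libraries alone. Ptgs2, the inducible cyclooxygenase, was at 0.154, 0.0947 and 0.138 FPKM in the untreated libraries and 611, 619.5 and 564 FPKM in the LPS libraries. Nos2, which makes nitric oxide, was listed at 0 in all untreated libraries and was at 141, 132 and 167 FPKM with LPS. Sod2, the mitochondrial superoxide dismutase, rose from 12.3 to 264 FPKM, and Gch1, which supplies a cofactor to Nos2, from 4.95 to 69.4 FPKM. Saa3, an acute-phase protein, and Mmp13, a collagenase, reached 789 and 536 FPKM. Ido1 was listed at 0 in all 6 libraries.

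Molecules through which macrophages meet T cells were induced. All 15 tested genes of the costimulatory and adhesion list were higher (beside 15.0% of all genes), with a median of 3.83. Of these, 12 were present in all 6 libraries. The list also holds receptors of other kinds, Cd14, Clec4e, Fas and Tnfrsf1b, and Cd14 is counted with the Toll-like receptor genes too. Cd69, an early activation marker, rose most, from 0.635 to 1010.5 FPKM. Cd40 rose from 1.47 to 1252 FPKM, Icam1 from 13.1 to 1362 FPKM and Cd274, which encodes PD-L1, from 6.64 to 370.3 FPKM. Of the ligands of CD28, Cd86 rose from 4.33 to 40.7 FPKM and Cd80 from 2.54 to 7.99 FPKM. In the MHC class I pathway 19 of 23 tested genes were higher, with a median of 2.60, among them the immunoproteasome subunit Psmb10, from 37.1 to 406 FPKM, the peptide transporter Tap1, from 11.2 to 179 FPKM, and B2m, from 1930.4 to 4533 FPKM. The chaperones Calr, Canx and Pdia3 were not called, with log2 fold changes from 0.00 to 0.28. In the MHC class II pathway 5 of 10 were higher. The median of 0.77 was 0.12 with a common sum and 0.24 with quantile normalization, and 0.43 over the 9 members present in all 6 libraries. Ciita, the regulator of the pathway, rose from 0.260 to 6.49 FPKM, H2-Ab1 from 16.4 to 65.1 FPKM and Cd74 from 53.3 to 151 FPKM. H2 genes are near-identical in places and their single values are uncertain.

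Of 22 tested genes of cell survival and death, 11 were higher and 1 lower, where 15.0% and 10.7% of all genes were. The other 10 were not called, and the median of 0.90 was 0.25 with a common sum and 0.35 with quantile normalization. Cflar, an inhibitor of caspase-8, rose from 9.95 to 303 FPKM, Birc2, an inhibitor of apoptosis, from 5.74 to 38.2 FPKM, and Mcl1 from 189 to 396 FPKM. Among death genes Bcl2l11, which encodes BIM, rose from 9.59 to 37.1 FPKM and Casp4 from 10.3 to 258 FPKM. Bax and Bad were not called, with log2 fold changes of 0.08 and -0.17. Bcl2 fell from 1.86 to 0.271 FPKM. The 3 tested Bcl2a1 paralogs rose too, but their reads can be split among near-identical copies.

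The 12 largest decreases included receptors, signalling proteins and transcription factors beside genes of other or unclear function. Cd300lb, an activating receptor of myeloid cells, was at 98.0, 96.1 and 94.2 FPKM in the untreated libraries and 3.72, 3.17 and 3.27 FPKM in the LPS libraries. On the log2(FPKM + 1) scale its change of -4.47 ± 0.07 was the largest decrease, with an adjusted p of 1.4e-18 by limma. That scale understates the change of genes with low LPS values, such as E2f2, which went from 11.9 to 0.160 FPKM. Lyl1, a transcription factor of blood cells, was at 43.7, 40.5 and 47.6 FPKM in the untreated libraries and 1.37, 1.16 and 1.40 FPKM in the LPS libraries. Cxcr4, the receptor of CXCL12 that holds cells in the marrow, was at 87.8, 89.8 and 98.3 FPKM in the untreated libraries and 5.28, 4.10 and 5.11 FPKM in the LPS libraries, with -4.00 ± 0.09. Inpp5d, which encodes the phosphatase SHIP1, was at 33.1, 34.1 and 37.5 FPKM in the untreated libraries and 2.04, 2.25 and 2.33 FPKM in the LPS libraries. In each of these genes all untreated values lay far above all LPS values. The remaining 8 of the 12 largest decreases were Rab3il1, Rasgrp3, a guanine nucleotide exchange factor, Tmem86a, Sesn1, a stress-induced sestrin, Lhfpl2, Snx24, a sorting nexin, Cebpa and E2f2. The log2 fold changes of the 12 ran from -4.47 to -3.48, with standard errors of at most 0.09.

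Transcription factors of the macrophage lineage split in opposite directions. Of 29 tested, 9 were higher and 11 lower, where 15.0% and 10.7% of all genes were. The median was -0.50, or -1.15 with a common sum and -0.84 with quantile normalization. Cebpa, a factor of myeloid differentiation, was at 34.1, 33.0 and 34.6 FPKM in the untreated libraries and 1.60, 1.80 and 1.83 FPKM in the LPS libraries. Pparg fell from 18.2 to 2.79 FPKM, Tfeb, which drives lysosomal genes, from 16.6 to 2.96 FPKM, and Mef2c from 10.4 to 2.92 FPKM. In contrast Cebpb rose from 16.3 to 144 FPKM, Cebpd from 9.70 to 67.4 FPKM, Batf from 4.17 to 128 FPKM and Spi1, which encodes PU.1, from 124 to 365 FPKM, where the call of Spi1 was lost with a common sum and with quantile normalization. Batf2, Tfec, Mitf, Id2 and Zeb2 were also higher, with log2 fold changes from 1.11 to 4.68. On the FPKM scale, which is per length, the level of Cebpa was above that of Cebpb before LPS and far below it after LPS. Irf8 and Klf4 were not called, with 0.72 ± 0.05 and 0.61 ± 0.06.

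Receptors for chemokines, growth factors and nucleotides moved in both directions. Of 26 tested, 11 were higher and 8 lower, where 15.0% and 10.7% of all genes were. The median of 0.54 was -0.11 with libraries scaled to a common sum. Besides Cxcr4, the fractalkine receptor Cx3cr1 fell from 13.2 to 1.66 FPKM, Ccr2 from 3.56 to 0.364 FPKM, Ccr1 from 8.61 to 2.33 FPKM and Gpr183, an oxysterol receptor, from 6.54 to 0.755 FPKM. The other receptors called lower were P2ry6, P2rx7 and Gpr34, with log2 fold changes of -1.10, -1.18 and -1.21. Ccrl2 rose from 3.57 to 479 FPKM, the formyl peptide receptor Fpr2 from 0.0694 to 69.8 FPKM, and the adenosine receptor Adora2a from 0.0509 to 32.5 FPKM. Csf1r, the receptor of M-CSF, was not called, with -0.50 ± 0.06. Of 25 phagocytic and scavenger receptors 6 were higher and 2 lower, where 15.0% and 10.7% of all genes were. Their median of 0.01 became -0.64 with a common sum and -0.50 with quantile normalization. The Fc receptors Fcgr1 and Fcgr4 rose from 8.43 to 68.5 FPKM and from 8.38 to 92.3 FPKM, Msr1 rose from 97.7 to 272 FPKM, and Scarb1 and Cd163 fell by 1.03 on the log2 scale and from 1.33 to 0.0769 FPKM, where the call of Scarb1 was lost without untreated replicate 3. Cd68 was at 956 and 959 FPKM, and Mertk at 4.92 and 4.74 FPKM.

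**Figure D3:**
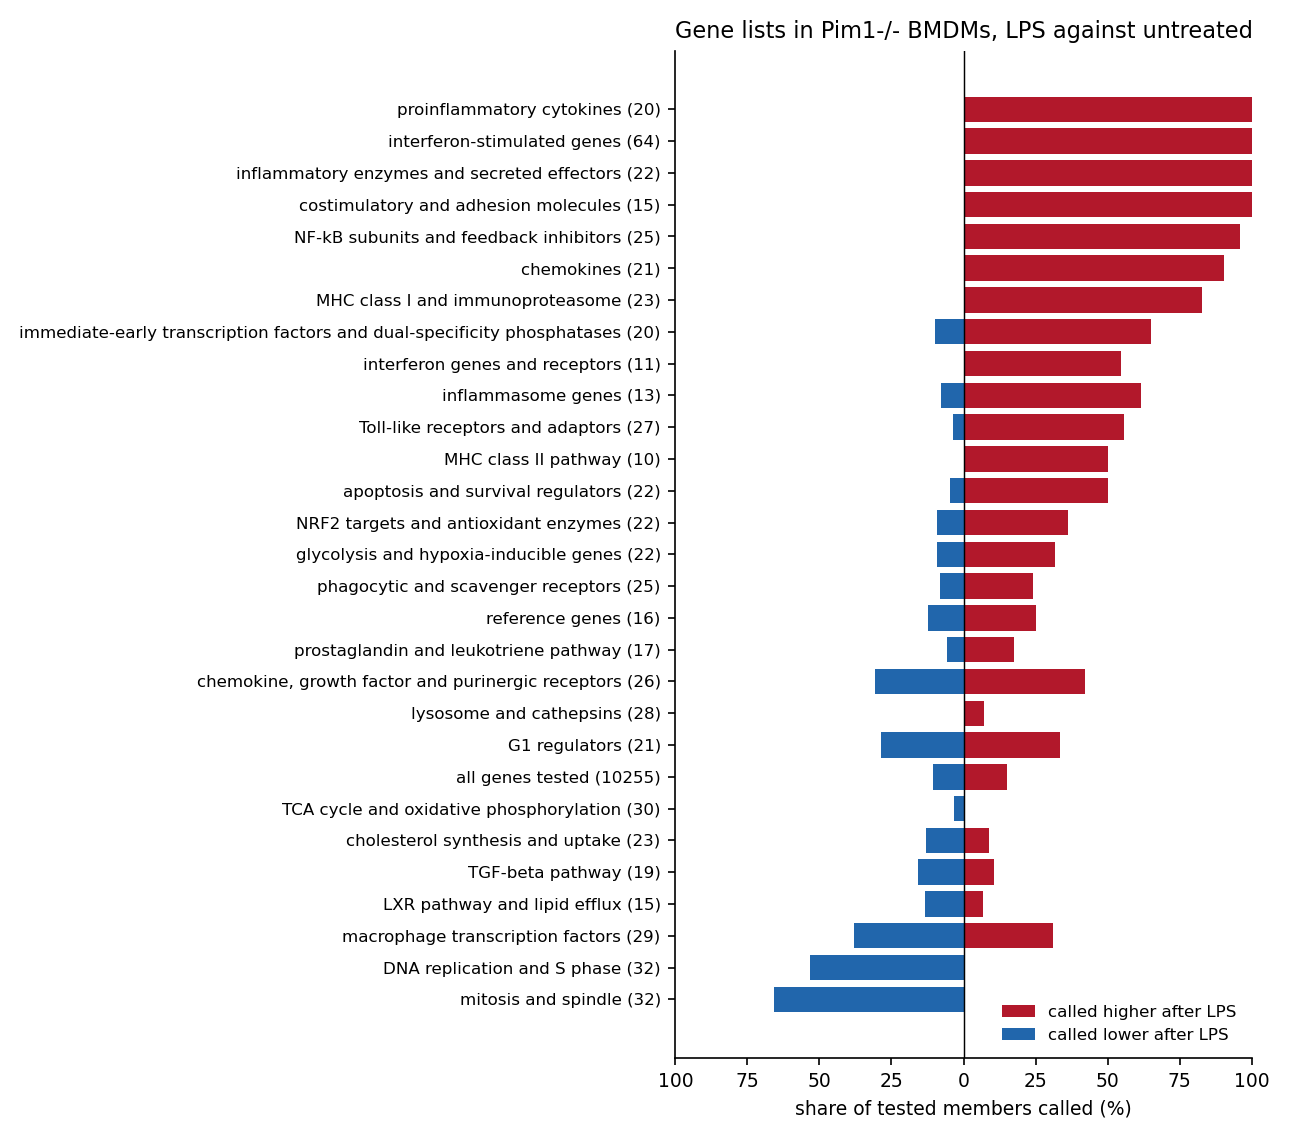
Share of the tested members of each gene list that was called higher (red, to the right) or lower (blue, to the left) after LPS in Pim1-/- BMDMs, with the number of tested members in parentheses. Lists of cytokines, ISGs, effectors and costimulatory genes reach 100% higher, the mitosis and DNA replication lists have lower calls only, and all genes tested stand at 15.0% and 10.7%.

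In both lists of cell division genes the calls were in the lower direction, and part of the members were not called. Of 32 mitosis and spindle genes 21 were lower and none higher, beside 10.7% and 15.0% of all genes, with a median of -1.44. Of 32 genes of DNA replication and S phase 17 were lower and none higher, with a median of -1.07, or -1.73 with a common sum and -1.23 with quantile normalization. In contrast to the cytokines these counts rest little on the filter, since 31 and 30 of the 32 were present in all 6 libraries. Kif23, a kinesin of cytokinesis, was at 23.3, 23.4 and 24.1 FPKM in the untreated libraries and 2.81, 2.72 and 2.31 FPKM in the LPS libraries. Cdc20, an activator of the anaphase-promoting complex, was at 22.5, 20.2 and 24.5 FPKM in the untreated libraries and 3.66, 3.31 and 3.95 FPKM in the LPS libraries. Bub1b, of the spindle checkpoint, fell from 17.3 to 2.60 FPKM and the mitotic kinase Aurkb from 20.2 to 4.07 FPKM. Among S phase genes Rrm2, a subunit of ribonucleotide reductase, was at 39.5, 37.7 and 37.3 FPKM in the untreated libraries and 5.50, 4.94 and 6.40 FPKM in the LPS libraries. Uhrf1, which maintains DNA methylation, fell from 20.1 to 2.70 FPKM and the helicase subunit Mcm2 from 18.4 to 4.02 FPKM. Others of the same processes were not called: Mki67 was at 40.9, 44.0 and 45.5 FPKM in the untreated libraries and 26.4, 26.1 and 26.1 FPKM in the LPS libraries, Cdk1 had -0.87 ± 0.06, and Pcna had 0.33 ± 0.06. The mitosis list made up 0.208% ± 0.00196 (SD, n = 3) of the summed FPKM without and 0.0602% ± 0.00161 with LPS.

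The regulators of entry into the cycle moved in both directions, with 7 of 21 higher and 6 lower, beside 15.0% and 10.7% of all genes. Ccnd1, the cyclin D1 gene, was at 44.4, 42.8 and 39.6 FPKM in the untreated libraries and 4.05, 4.52 and 4.25 FPKM in the LPS libraries. Ccnd2, its relative, was at 3.04, 3.29 and 2.96 FPKM in the untreated libraries and 65.8, 67.8 and 73.4 FPKM in the LPS libraries. Ccnd3, the remaining D cyclin, had -0.97 ± 0.07, just short of the threshold, and was called lower with a pseudocount of 0.1 (-1.03), quantile normalization (-1.24), a common sum (-1.64) or without untreated replicate 2 (-1.02). Cdkn1a, which encodes the inhibitor p21, was at 55.5, 54.7 and 60.2 FPKM in the untreated libraries and 1188, 1203 and 1317 FPKM in the LPS libraries, a log2 fold change of 4.42 ± 0.05. Gadd45b rose from 9.92 to 479 FPKM. E2f2, an activator of S phase genes, was at 11.7, 11.5 and 12.6 FPKM in the untreated libraries and 0.117, 0.148 and 0.216 FPKM in the LPS libraries, and Cdk2 and Cdk4 fell from 16.4 to 4.34 FPKM and from 120.2 to 55.5 FPKM. Cdkn2c and Rbl2, which restrain the cycle, fell as well, with -2.07 ± 0.07 and -1.06 ± 0.06. Trp53 was not called, with 0.53 ± 0.06.

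The promoters of 2 mitotic genes are shown in the same windows as above, with matches to CCAAT, the motif of NF-Y, and to TTTGAA, the cell cycle homology region (CHR), in capitals. Cdc20 has CCAAT matches 53 and 8 bases before the start and, 18 bases before it, a match to the CHR. Kif23 has a CCAAT match 7 bases before and a CHR match 3 bases after it.
Cdc20 promoter, chr4:118437294-118437593 (- strand): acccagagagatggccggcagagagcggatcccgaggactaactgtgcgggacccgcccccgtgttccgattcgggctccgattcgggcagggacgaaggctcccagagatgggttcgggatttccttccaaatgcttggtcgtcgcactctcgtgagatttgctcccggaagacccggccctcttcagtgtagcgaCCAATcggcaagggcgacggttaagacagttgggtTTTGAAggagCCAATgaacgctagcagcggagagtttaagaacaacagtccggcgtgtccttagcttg
Kif23 promoter, chr9:61946750-61947049 (- strand): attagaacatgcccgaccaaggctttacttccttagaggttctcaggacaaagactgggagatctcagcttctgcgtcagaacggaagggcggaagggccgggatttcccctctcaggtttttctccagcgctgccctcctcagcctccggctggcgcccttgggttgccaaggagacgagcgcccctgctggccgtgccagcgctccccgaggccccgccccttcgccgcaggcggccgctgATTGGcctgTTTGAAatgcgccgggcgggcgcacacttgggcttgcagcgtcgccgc

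Motif matches were counted in the promoter windows of the 6549 tested genes with exactly 1 RefSeq window, 938 of the genes called higher and 673 of those called lower. Both strands were searched, except for TATAAA. The ISRE core was in 10.2% of the windows of higher genes, in 1.93% of lower genes and in 3.57% of all. Among the 41 ISGs with a window it was in 53.7%. The NF-kB consensus was in 9.17% of higher, 4.01% of lower and 6.49% of all windows, and in 5 of 14 windows of chemokines. The AP-1 motif TGANTCA was in 7.57%, 3.71% and 4.54%, and TATAAA in 8.53%, 4.16% and 4.35%. In genes that rose more than 16-fold, 119 with a window, the ISRE core reached 26.9%, TATAAA 20.2% and the NF-kB consensus 14.3%. These windows held a median of 6 CpG dinucleotides, where windows of all tested genes held 22. For CHR and CCAAT the share was larger in all lower than in all higher genes: TTTGAA was in 18.0% of lower, 11.2% of higher and 12.2% of all windows, and CCAAT in 45.2%, 37.4% and 40.2%. This did not hold for CHR in the genes that rose more than 16-fold, of which 20.2% held TTTGAA, beside 17.8% of genes that fell more than 4-fold, and it was in 29.3% of ISG windows. CCAAT was in 31.1% of the former and 43.9% of the latter. In the 25 mitosis genes with a window, 68.0% held TTTGAA and 76.0% CCAAT. The shares are descriptions of the letters in these windows and no test was made.

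**Figure D4:**
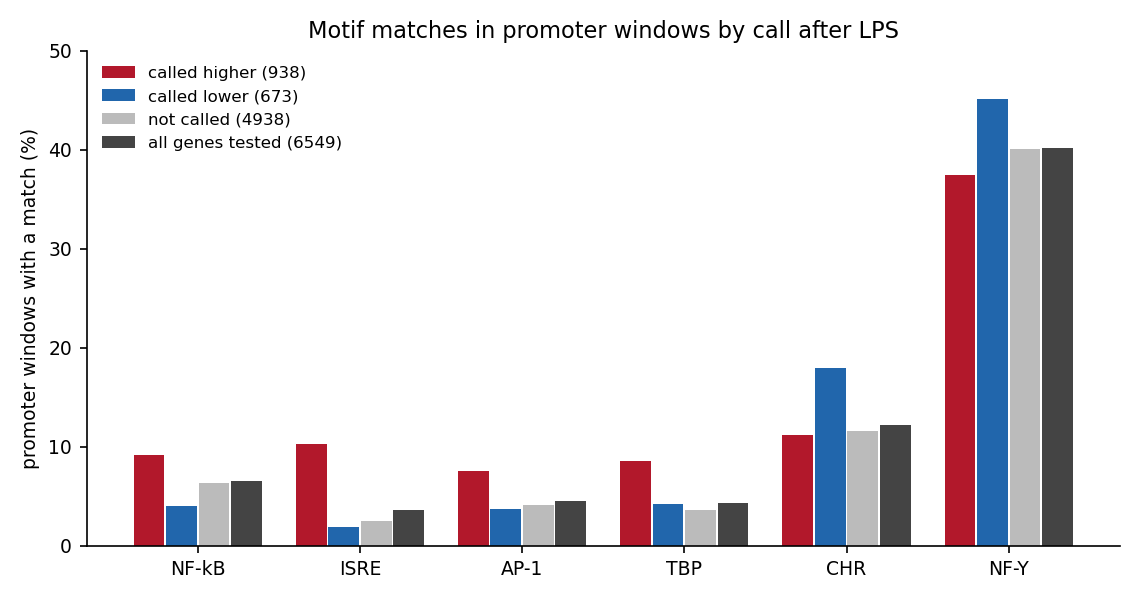
Share of promoter windows (250 bases before to 50 after the start) that hold each motif, for genes called higher, called lower, not called and all genes tested; the numbers of windows are in parentheses, NF-Y stands for its CCAAT motif and TBP for TATAAA. ISRE matches are in 10.2% of windows of higher and 1.93% of lower genes, while CHR matches are in 11.2% and 18.0%.

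Genes that rose often lay side by side. Of 1530 genes called higher that had a next tested gene on the chromosome, 465, or 30.4%, were followed by another one called higher, where 15.0% of all genes were called so. For genes called lower the shares were 16.8% and 10.8% of the genes with a position. The longest run held 10 genes on chromosome 1, from Aim2 at 173350879 to Ifi205, ending at 174031810 (GRCm38), and is made of the Ifi200 family of DNA sensors. A run of 9 on chromosome 11 from 48861968 to 49135387 held Irgm1, Tgtp1 and Ifi47, which are interferon-induced GTPases. On chromosome 17, Psmb9, Tap1, Psmb8, Tap2, H2-Ab1, H2-Aa and H2-Eb1 were neighbours from 34181987 to 34316674. The chemokine genes Ccl2, Ccl7, Ccl12 and Ccl8 stood in a run on chromosome 11. Neighbours of 1 family can share reads, so the members of such runs are not independent.

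Metabolic lists differed in how many of their genes were called. In glycolysis and hypoxia 7 of 22 genes were higher and 2 lower, where 15.0% and 10.7% of all genes were. The count of lower ones is near its share, so it is no result about the list. The median of 0.20 became -0.44 with a common sum and -0.56 with quantile normalization. Slc2a6, a sugar transporter, rose from 27.8 to 513 FPKM, Hk2 from 4.83 to 21.9 FPKM, Pfkfb3, which stimulates glycolysis, from 4.15 to 27.3 FPKM, and Hif1a from 14.9 to 45.0 FPKM. Vegfa fell from 8.33 to 1.54 FPKM and Slc2a3 from 4.20 to 0.914 FPKM, and Gapdh and Ldha were not called, with 0.05 ± 0.04 and 0.07 ± 0.04. Among 30 genes of the TCA cycle and oxidative phosphorylation none was higher and Idh1, the cytosolic isocitrate dehydrogenase, alone was lower, from 94.3 to 33.6 FPKM. Both counts are below the shares over all genes. In cholesterol synthesis and uptake 2 of 23 were higher and 3 lower. This is near the shares of 15.0% and 10.7% over all genes, so the count is no result about the list. Dhcr7, of the last step, fell from 6.73 to 1.30 FPKM. The sterol efflux pump Abca1 rose from 2.46 to 7.17 FPKM, while Scd2, a fatty acid desaturase, fell from 3.99 to 0.164 FPKM and Fasn from 4.63 to 1.33 FPKM. In the lysosome list 2 of 28 were higher and none lower, both below the shares of 15.0% and 10.7% over all genes. Acp5 rose from 1.29 to 36.2 FPKM and Ctsc from 62.1 to 207 FPKM. The median of the list, 0.05, became -0.59 with a common sum.

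Of 22 antioxidant genes 8 were higher and 2 lower, where 15.0% and 10.7% of all genes were. The count of lower ones is near its share, so it is no result about the list. The median of 0.46 was -0.18 with a common sum. Prdx5 rose from 158 to 1403 FPKM, Sqstm1, the autophagy receptor p62, from 221 to 1589 FPKM, and Mt2, a metallothionein, from 42.4 to 186 FPKM. Hmox1, heme oxygenase 1, fell from 118 to 50.5 FPKM, and Gclc, of glutathione synthesis, from 13.9 to 6.07 FPKM. In the prostaglandin and leukotriene pathway 3 of 17 were higher and 1 lower. This is not far from the shares of 15.0% and 10.7% over all genes, so the count is no result about the list. The lower one was Hpgd, which degrades prostaglandins, from 23.6 to 4.39 FPKM. Ptgs1, the constitutive cyclooxygenase, was not called with -0.95 ± 0.07. In the TGF-β pathway 2 of 19 were higher and 3 lower, near the shares of 15.0% and 10.7% over all genes, so the count is no result about the list and the values below are given as descriptions. Skil, a repressor of SMAD signalling, rose from 7.59 to 50.1 FPKM, Eng, a co-receptor, rose from 3.10 to 11.8 FPKM, Ski, a relative of Skil, fell from 16.7 to 2.60 FPKM, and the receptor Tgfbr1 fell from 44.7 to 15.9 FPKM.

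Of 16 genes often used as references 4 were higher and 2 lower, where 15.0% and 10.7% of all genes were. Their median of 0.23 became -0.41 with a common sum and -0.56 with quantile normalization. Actb, the β-actin gene, was at 1041, 989.6 and 1062 FPKM in the untreated libraries and 2848, 2786 and 3281 FPKM in the LPS libraries, a log2 fold change of 1.52 ± 0.06 that was 0.86 with a common sum. Ywhaz rose from 68.7 to 164 FPKM with the deposited scaling, and was at 0.58 on the log2 scale with a common sum. Polr2a and Tubb5 fell from 21.3 to 9.99 FPKM and from 318 to 156 FPKM, close to the threshold, and the calls of both were lost when 1 library was left out. Hprt was at 138 and 133 FPKM and Rpl13a at 819 and 894 FPKM.

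The response was then set beside that of WT cells, with the same thresholds on the same genes. Of the 1543 genes called higher in Pim1-/- cells 1441, or 93.4%, were also called higher in WT cells, which is 69.7% of the 2066 called there. Of the 1102 called lower 835, or 75.8%, were also lower in WT cells, which is 55.5% of 1505. A gene past the threshold in only 1 genotype is not thereby shown to differ, so the difference between the responses was tested by the interaction term of the limma fit. It was called for 223 genes with a higher response in Pim1-/- cells (2.17% of the genes tested) and for 439 with a lower one (4.28%). With a common sum these counts were 384 and 394, so the balance between them rests on the scaling. All 4 groups enter this term, the Pim1-/- libraries included, and the values before and after LPS are therefore given side by side.

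**Figure D5:**
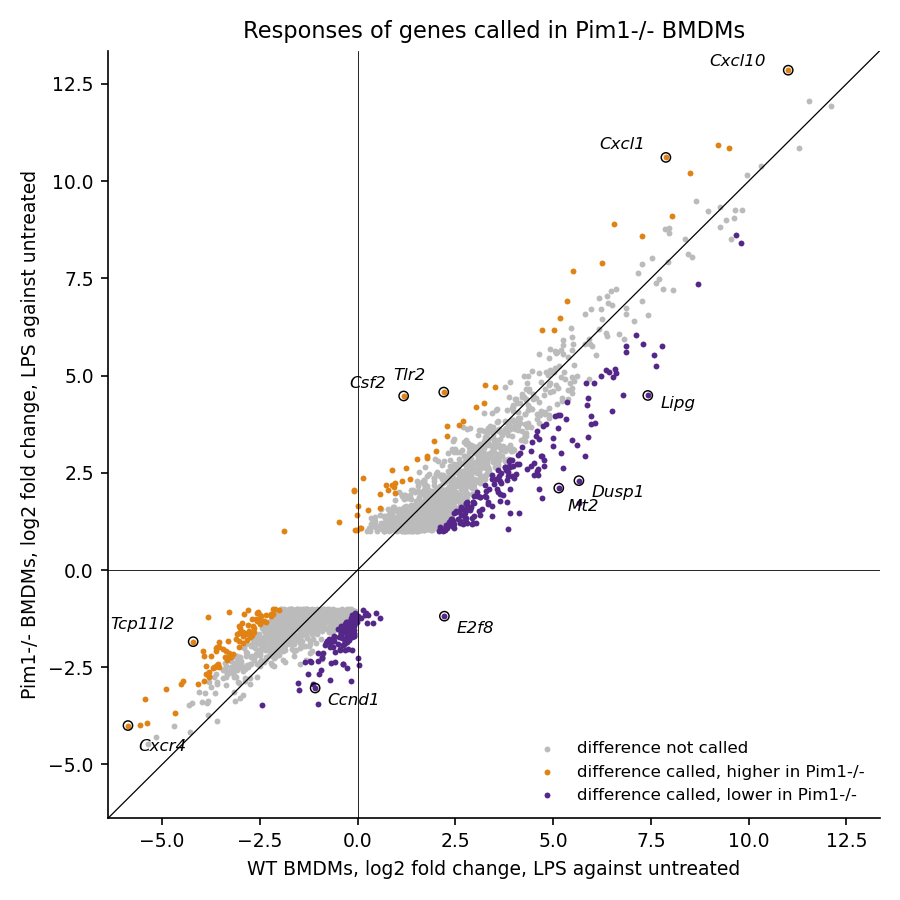
Log2 fold change after LPS in WT (x axis) and Pim1-/- BMDMs (y axis) of the 2645 genes called in Pim1-/- cells, on the log2(FPKM + 1) scale; the line marks equal responses and colours mark the test of the difference. Most genes follow the line, Cxcl1, Csf2 and Tlr2 lie above it, and Dusp1, Mt2 and E2f8 below it.

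Among called genes reaching a group mean of 5 FPKM in Pim1-/- cells, microRNAs and genes with overlapping groups left out, the largest differences in the higher direction were those of Csf2, Cxcl1, Tlr2 and Tcp11l2. Mir8112, left out on both counts, had 2.90 ± 0.60. Csf2 rose to 21.5 FPKM in Pim1-/- cells and, from listed zeros, to 1.31 FPKM in WT cells, a difference of 3.30 ± 0.17 on the log2(FPKM + 1) scale, where the zeros make it depend on the pseudocount, with an adjusted p of 1.6e-10 by limma. Cxcl1 went from 0.0717 to 1674 FPKM compared with 0.0770 to 254 FPKM in WT cells, a difference of 2.73 ± 0.09. Cxcl2, which acts on the same receptor, differed in the same direction, by 1.70 ± 0.10, and Cxcl3 reached 205 FPKM after LPS in Pim1-/- cells, where WT cells had 47.0 FPKM. Tlr2 started lower and ended higher, from 13.2 to 337 FPKM compared with 46.2 to 216 FPKM in WT cells. Tcp11l2 fell from 7.54 to 1.39 FPKM, less than in WT cells, where it went from 30.7 to 0.718 FPKM. For Cxcl10 the LPS levels were close, 9897 and 11630.5 FPKM, and the difference of 1.84 ± 0.07 came with untreated levels of 0.338 and 4.64 FPKM. Ifit1 and Rsad2 were alike in this, with untreated levels of 0.618 and 0.776 FPKM in Pim1-/- and 5.39 and 4.71 FPKM in WT cells. At such low untreated levels the sizes of these differences depend on the pseudocount.

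In the lower direction, among the same genes, the largest differences were those of E2f8, Dusp1, Mt2 and Lipg. E2f8, a repressor of E2F targets, moved in opposite directions: with LPS it fell from 8.56 to 3.20 FPKM, whereas in WT cells it rose from 1.37 to 10.0 FPKM, a difference of -3.41 ± 0.09 with an adjusted p of 3e-13 by limma. Dusp1, a phosphatase that ends MAP kinase signals, went from 3.85 to 22.8 FPKM compared with 2.33 to 167 FPKM in WT cells, a difference of -3.36 ± 0.10. Mt2 went from 42.4 to 186 FPKM compared with 15.3 to 574 FPKM in WT cells. Lipg, an endothelial-type lipase, went from 0.00463 to 21.6 FPKM compared with 0.0206 to 174 FPKM in WT cells. Among the division genes, 13 of 32 mitosis genes and 11 of 32 replication genes had a lower response in Pim1-/- cells and none a higher one. Over all genes tested 4.28% had a lower response. Mki67, a marker of dividing cells, differed most, from 43.5 to 26.2 FPKM compared with 2.90 to 28.6 FPKM in WT cells, so that the WT level started far below that of Pim1-/- cells and ended close to it. In cholesterol synthesis and uptake 10 of 23 genes had a lower response and none a higher one, among them Sqle, from 12.6 to 5.29 FPKM compared with 13.3 to 18.7 FPKM in WT cells, and Cyp51, with log2 fold changes of 0.04 in Pim1-/- and 1.62 in WT cells. Of the inflammatory enzymes and effectors 9 of 22 had a lower response, with Ch25h, which makes 25-hydroxycholesterol, from 0.773 to 23.5 FPKM compared with 0.301 to 86.9 FPKM in WT cells. Responses of Tnf, Il6 and Nfkbia differed by 0.07 ± 0.07, 0.08 ± 0.07 and 0.15 ± 0.06 and were not called. The Ifnb1 response was not called, although its mean after LPS was higher, 15.5 FPKM beside 8.50 FPKM in WT cells. This direction is opposite to that of the study, which reported less IFN-β mRNA by RT-qPCR and less protein by ELISA in LPS-treated Pim1-/- BMDMs. The missing call does not show that the Ifnb1 responses were alike.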

How the data were processed

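Stranded mRNA libraries from BMDMs (12 libraries, 3 in each of 4 groups) were sequenced and processed by the authors with cutadapt 1.18, TopHat2 2.0.13 and Cuffdiff 2.2.1, per the submitters' processing notes. The deposited values were read as FPKM, 1 column per library with no unit in the header, from the authors' use of Cuffdiff and the sums and decimals of the values. The processing notes name mm10, whereas the study's methods name rat rn5. Names were looked up in GENCODE M21: of 23997, 22694 were found as symbols, 911 as synonyms and 392 not at all. How Cuffdiff scaled the libraries is not given in the sources used here, and no scaling was added.

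The 10255 genes reaching 1 FPKM in 3 or more of the 6 Pim1-/- libraries were tested on log2(FPKM + 1) with limma 3.58.1 (R 4.3.3), 4 group means over all 12 libraries, a mean-variance trend and Benjamini-Hochberg adjustment over all of them. A call needed more than 2-fold, p under 0.05 and FDR under 0.1. The fit was first tested on simulated data. The correlation of same-numbered deviations, untreated with LPS, was 0.139, 0.365 and 0.440 over 5051 genes, and each was over 0.1, the cut set for a pairing. Deviations from the mean of 3 libraries depend on each other, so passing this cut does not show that the numbers pair the libraries. Untreated replicate 1 correlated more with LPS replicate 2 (0.250) than with its own number. A pairing by number would come from these values only, and the fit without the block was kept as the main one.

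The members, the 37 gene lists and the tests were chosen with earlier results of these data known. Genes named are Pim1, the 12 called genes with the largest increase and decrease (higher mean at least 5 FPKM, groups apart, no microRNA, Gm or Rik models or pseudogenes), the 5 with the highest levels before and after LPS, the 4 with the largest difference from WT in each direction, the called members with the largest changes in each list, those against its majority, and members looked for by role. Some genes that this rule names are not reported here. Mir8112 and Atp6v0c-ps2 are named because their groups overlap. Promoter windows are those of RefSeq (GRCm38.p6), and Python 3.11.15 with pandas 2.3.3 served for the tables. Alternatives covered the pseudocount, the filter, the scaling, the block, the trend, the thresholds and each library left out.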

Additional observations from a re-analysis of the deposited data

Results flagged for a closer look

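The response to LPS differed between Pim1-/- and WT cells by the interaction term of limma for 223 genes in the higher and 439 genes in the lower direction, at more than 2-fold and a Benjamini-Hochberg FDR under 0.1. Those named in the text are given here with the difference of the log2 fold changes, Pim1-/- minus WT, on the log2(FPKM + 1) scale. Groups of 3 libraries are too small for a test of single outlying samples, and none was made. Among genes of chemokines and cytokines, the response was higher in Pim1-/- cells for Csf2 (3.30), Cxcl1 (2.73), Cxcl3 (2.17), Cxcl10 (1.84), Cxcl2 (1.70), Ccl17 (1.65) and Cxcl16 (1.15). Among genes of chemokines and cytokines, the response was lower in Pim1-/- cells for Ccl24 (-3.94), Cxcl9 (-2.07), Il1rn (-2.02), Ccl8 (-1.76), Ccl12 (-1.35), Cxcl11 (-1.26) and Il27 (-1.06). Among genes of ISGs and antigen presentation, the response was higher in Pim1-/- cells for Ifit1 (1.71), Ciita (1.69) and Rsad2 (1.34). Among genes of the cell cycle, the response was lower in Pim1-/- cells for Mki67 (-3.63), E2f8 (-3.41), Ccnd2 (-2.41), Uhrf1 (-2.24), Ccnd1 (-1.95), Rrm2 (-1.64), Cdkn1a (-1.46), Bub1b (-1.33), Pcna (-1.17), Ccnd3 (-1.15), Cdc20 (-1.10) and E2f2 (-1.02). Among genes of receptors and their signalling, the response was higher in Pim1-/- cells for Gpr34 (2.62), Tlr2 (2.37) and Cxcr4 (1.87). Among genes of receptors and their signalling, the response was lower in Pim1-/- cells for Dusp1 (-3.36), Msr1 (-2.66), Pycard (-1.95), Myc (-1.59), Dusp2 (-1.41), Adora2a (-1.25), Pdgfrb (-1.24), Jun (-1.19), Ccr1 (-1.15) and Fpr2 (-1.06). Among genes of effector enzymes and metabolism, the response was higher in Pim1-/- cells for Abca1 (1.71) and Sqstm1 (1.33). Among genes of effector enzymes and metabolism, the response was lower in Pim1-/- cells for Mt2 (-3.04), Ch25h (-2.29), Pfkfb3 (-2.05), Cyp51 (-1.58), Sqle (-1.58), Mmp13 (-1.40), Actb (-1.08), Ctsc (-1.06) and Sod2 (-1.05). Among macrophage transcription factors, the response was higher in Pim1-/- cells for Tfeb (1.04) and Cebpa (1.01). Among genes of no list, the response was higher in Pim1-/- cells for Mir8112 (2.90), Tcp11l2 (2.36), Slc26a11 (1.82), Slc40a1 (1.61), Tmem86a (1.57) and Sesn1 (1.46). Among genes of no list, the response was lower in Pim1-/- cells for Lipg (-2.93), Fbxo5 (-2.43), Arhgef39 (-2.11), Slfn1 (-1.81), Ccnf (-1.80), Tgtp1 (-1.06) and Gpr84 (-1.03). A positive value of a gene that fell means that it fell less in Pim1-/- cells. For Cxcl3, Cxcl9, Cxcl11 and Csf2, listed at 0 in all libraries of at least 1 untreated group, the value depends on the pseudocount. The values of other genes with low untreated levels, such as Cxcl10, Ifit1 and Rsad2, depend on it too. A pseudocount of 0.1 gave 460 higher and 514 lower differences. With a common sum 384 differences were higher and 394 lower.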

How the results depend on the processing

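The counts of genes called after LPS, 1543 higher and 1102 lower, were within 1.5 times of these values under a pseudocount of 0.1, no filter, a filter of 5 FPKM, median-ratio scaling, quantile normalization, a fit of the 6 Pim1-/- libraries alone and limma without a trend. An FDR under 0.05 with no fold threshold gave 4350 higher and 4371 lower, and a threshold of more than 4-fold gave 690 and 192. Scaling every library to the same sum, chosen after seeing the data, gave 1005 and 3097. Leaving out each Pim1-/- library in turn gave 1537 to 1554 higher and 1095 to 1112 lower. With the replicate block the counts were 1544 and 1102, and the block changed no call of a gene named in the text. For the difference in response, a pseudocount of 0.1 gave 460 higher, the FDR without a fold threshold 3020 higher and 3439 lower, more than 4-fold 18 and 49, and the common sum 384 higher. The cause of these shifts was not tested, beyond what the thresholds themselves set.

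259 genes named in the text were followed through the alternatives, and none reversed. With the common sum 18 lost and 10 gained a call, and with quantile normalization 18 lost and 7 gained one, among them Actb, B2m, Spi1 and Msr1, which lost it under both, and Tlr4, Csf1r and Mki67, which were called lower under both. Calls that rested on 1 library were those of Polr2a (-0.95 without LPS replicate 1 and -0.96 without untreated replicate 3), Tubb5 (-0.98 without LPS replicate 2 and -0.98 without untreated replicate 3), Scarb1 (-0.97 without untreated replicate 3) and Kit (-0.99 without untreated replicate 3), all log2 fold changes next to the threshold. Adamts10 (-0.99 to -0.97) and Zfp101 (-0.99 to -0.95) lost theirs without any of 3 libraries each, and Mir8112, at 0.58 to 1.55 over the 6 fits, without any of 4. Of 30 list medians 19 kept their sign under every alternative. With the common sum or quantile normalization the medians of phagocytic receptors, glycolysis, lysosome, oxidative phosphorylation (-0.42 and -0.46), reference genes and macrophage markers (-0.63 and -0.33) became negative, with the common sum alone those of receptors, antioxidant genes and the Pim family (-0.19), with a filter of 5 FPKM that of the TGF-β pathway became 0.17, and that of the LXR pathway, -0.02, moved around 0. Depth limits genes below about 1 FPKM, which were not tested.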

Other observations

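Further genes of known function changed outside the lists, and were chosen after their values were seen. Among genes that rose, Hcar2, a receptor for nicotinic acid and ketone bodies, went from 0.952 to 85.4 FPKM (log2 fold change 5.47 ± 0.06), Gpr84, a receptor for medium-chain fatty acids, from 0.564 to 42.8 FPKM (4.80 ± 0.07), and Src, a tyrosine kinase, from 0.215 to 34.5 FPKM (4.87 ± 0.05). Ripk2, the kinase of NOD signalling, rose from 6.85 to 242 FPKM and Malt1, a paracaspase of the NF-κB pathway, from 6.91 to 214 FPKM. Among genes that fell, Slc40a1, which encodes the iron exporter ferroportin, was at 33.8, 36.2 and 33.9 FPKM in the untreated libraries and 4.07, 3.80 and 3.81 FPKM in the LPS libraries. S1pr1 and Il6ra, a chain of the interleukin-6 receptor, fell from 16.5 to 0.795 FPKM and from 10.4 to 0.903 FPKM. Rxra, the partner of many nuclear receptors, fell from 8.33 to 0.796 FPKM, and Dnmt1, the maintenance DNA methyltransferase, from 27.7 to 4.57 FPKM. In each of these genes the 3 LPS values lay apart from the 3 untreated ones, as did those of 83.9% of all genes tested.

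Other runs of neighbouring genes called higher were those of 8 genes with Slfn1 to Slfn5 on chromosome 11, from 82951349 to 83215154, of 8 genes with the Phf11 family on chromosome 14, from 59201209 to 59585764, of 8 genes with the Ms4a family on chromosome 19, from 10941481 to 11604849, and of 6 Oas genes on chromosome 5, from 120730333 to 120907521 (GRCm38). The only run of at least 5 genes called lower held Zfp101, Adamts10, Myo1f, Zfp414 and Pram1 on chromosome 17, from 33360507 to 33645706. Its extent rests on genes near the 2-fold threshold: the call of Adamts10 was lost without LPS replicate 2 or untreated replicate 1 or 2 (-0.99 to -0.97), and that of Zfp101 without LPS replicate 1 or 3 or untreated replicate 1 (-0.99 to -0.95), and both calls with median-ratio scaling (-0.99 each).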
